A study of Mus musculus with 3 samples.

Results

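Transcripts of 47 genes for matrix glycoproteins and proteoglycans were examined in 3 segments of the embryonic mouse gut. The genes were taken by symbol from a table of 33762 Ensembl features, and each symbol matched 1 feature. They comprise 4 tenascins, 10 small leucine-rich proteoglycans, 6 lecticans and link proteins, 3 genes for fibronectin and fasciclin-domain proteins, 11 elastic fibre and microfibril genes, 5 thrombospondins, 4 matrilins, 2 nidogens, and osteopontin and SPARC. The segments were the caecum, the colon and the presumptive ileum of wild-type embryos of the strain given as Bl6/C57, at E13.5, and the labels give no altered allele or treatment for any of them. Polyadenylated RNA of whole tissue was sequenced, with 1 sample per segment, and the labels do not say whether a sample came from 1 embryo or from several. The ileum was defined by length, as the last of 3 equal portions of the small intestine. With 1 library per segment there is no replicate check and no test between segments, and each difference below is a difference between libraries.

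The extracellular matrix of the developing gut is laid down mostly by mesenchyme around the epithelial tube. Fibronectin and tenascins are large adhesive or anti-adhesive glycoproteins that cells bind through integrins. Small leucine-rich proteoglycans coat collagen fibrils and set their spacing, and lecticans hold hyaluronan in large hydrated aggregates that link proteins lock in place. Fibrillins, fibulins and microfibril-associated proteins form the scaffold on which elastin is deposited, and thrombospondins, SPARC and osteopontin are matricellular proteins that modulate how cells attach.

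The libraries held 64439701, 50772855 and 50079617 counts in the caecum, colon and ileum. Most of the 8 regional genes examined followed the labels of the tissues. Hoxd9 had 3422, 234 and 12 counts in the caecum, colon and ileum, and Hoxd13 had 13, 2354 and 1. Hoxb13 was counted in the colon library alone, at 620 counts, and Gata4, a transcription factor of the small intestine, had 4, 58 and 702. Fgf10, a growth factor of the caecal bud, was low in the ileum library but higher in the colon library than in the caecum library, with 2162, 3663 and 124 counts. Marker genes of several other cell types differed between the libraries too, and are given beside results below. None of 5 endothelial or 5 erythroid markers was 2-fold or more apart between any of the libraries.

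Levels are given as RPKM, read counts scaled to transcript length and library depth, in the order caecum, colon and ileum. Folds are ratios of library-scaled counts, with a 95% interval in brackets that covers counting error only. Genes were compared where the higher of the libraries held 20 counts or more, and those that differed by 2-fold or more are called apart. The 3 comparisons share their libraries and are not independent of each other.

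The 47 genes together took 0.536%, 0.534% and 0.448% of all counts in the caecum, colon and ileum libraries. Of these genes, 43 reached 20 counts in at least 1 library. Omd, Kera, Bcan and Matn1 did not, with at most 17 counts in any library. At 250.5, 217.6 and 192.4 RPKM in the caecum, colon and ileum, Mfap2, a microfibril-associated glycoprotein, was the most abundant of the group in the caecum, colon and ileum libraries alike. Sparc, a collagen-binding matricellular protein, had 168, 197 and 190.5 RPKM. Tgfbi, an adhesive fasciclin-domain protein, had 119, 115 and 91.4 RPKM, and Fn1, fibronectin, had 114, 97.0 and 55.6 RPKM. The range was wide, since 16, 15 and 14 of the 47 genes lay under 1 RPKM in the caecum, colon and ileum.

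Between caecum and ileum, the caecum library was 2-fold or more above the ileum library for 6 of 42 measured genes and 2-fold or more below it for 8. These are 14.3% and 19.0% of the genes, beside 4.59% higher and 2.52% lower among all 17827 features measured. The whole interval lay beyond 2-fold for 4 higher and 6 lower genes, beside 2.23% and 1.31% of all features. The higher genes were Tnc, Fn1, Postn, Comp, Matn3 and Matn4, and the lower ones were Tnn, Tnr, Tnxb, Aspn, Epyc, Thbs2, Thbs4 and Spp1. Between caecum and colon, 6 of 42 were higher in the caecum (14.3%) and 5 were lower (11.9%), beside 5.11% and 2.74% of all 17900 features. The whole interval lay beyond 2-fold for 4 and 5 of these, beside 2.86% and 1.28%. The higher genes were Tnn, Tnr, Lum, Dcn, Ncan and Comp, and the lower ones were Fmod, Aspn, Acan, Spp1 and Matn4. Between colon and ileum, 7 of 42 were higher in the colon (16.7%) and 6 were lower (14.3%), beside 4.04% and 4.29% of all 17579 features. For 5 and 6 of these the whole interval lay beyond 2-fold, beside 1.97% and 2.40%. The higher genes were Tnc, Acan, Hapln1, Mfap5, Spp1, Matn3 and Matn4, and the lower ones were Tnn, Tnr, Tnxb, Lum, Epyc and Thbs4.

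The genes that differed went in both directions in each comparison. The median log2 fold of the measured genes was -0.19 for caecum over ileum, -0.04 for caecum over colon and -0.02 for colon over ileum. The last took Acan against the floor of 3 counts. Over all features the medians were 0.009, 0.009 and -0.004. In all, 21 genes were apart in at least 1 comparison, and Tnn, Tnr, Spp1 and Matn4 were apart in all 3. The other 22 measured genes stayed within 2-fold in all 3 comparisons, Fbn1 only just. Among all 18005 features with 20 counts in a library, 13.7% were apart in at least 1 comparison. Of the 20 genes of the group that reached 10 RPKM somewhere, 6 were apart, beside 3.20% of all features at that level. Of the 23 that did not, 15 were apart, beside 20.6% of all such features, and Acan, Comp, Epyc and Matn3 among the 15 had at most 46 counts in any library. The abundant 6 were Lum, Dcn, Fn1, Postn, Thbs4 and Matn4.

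**Figure D1:**
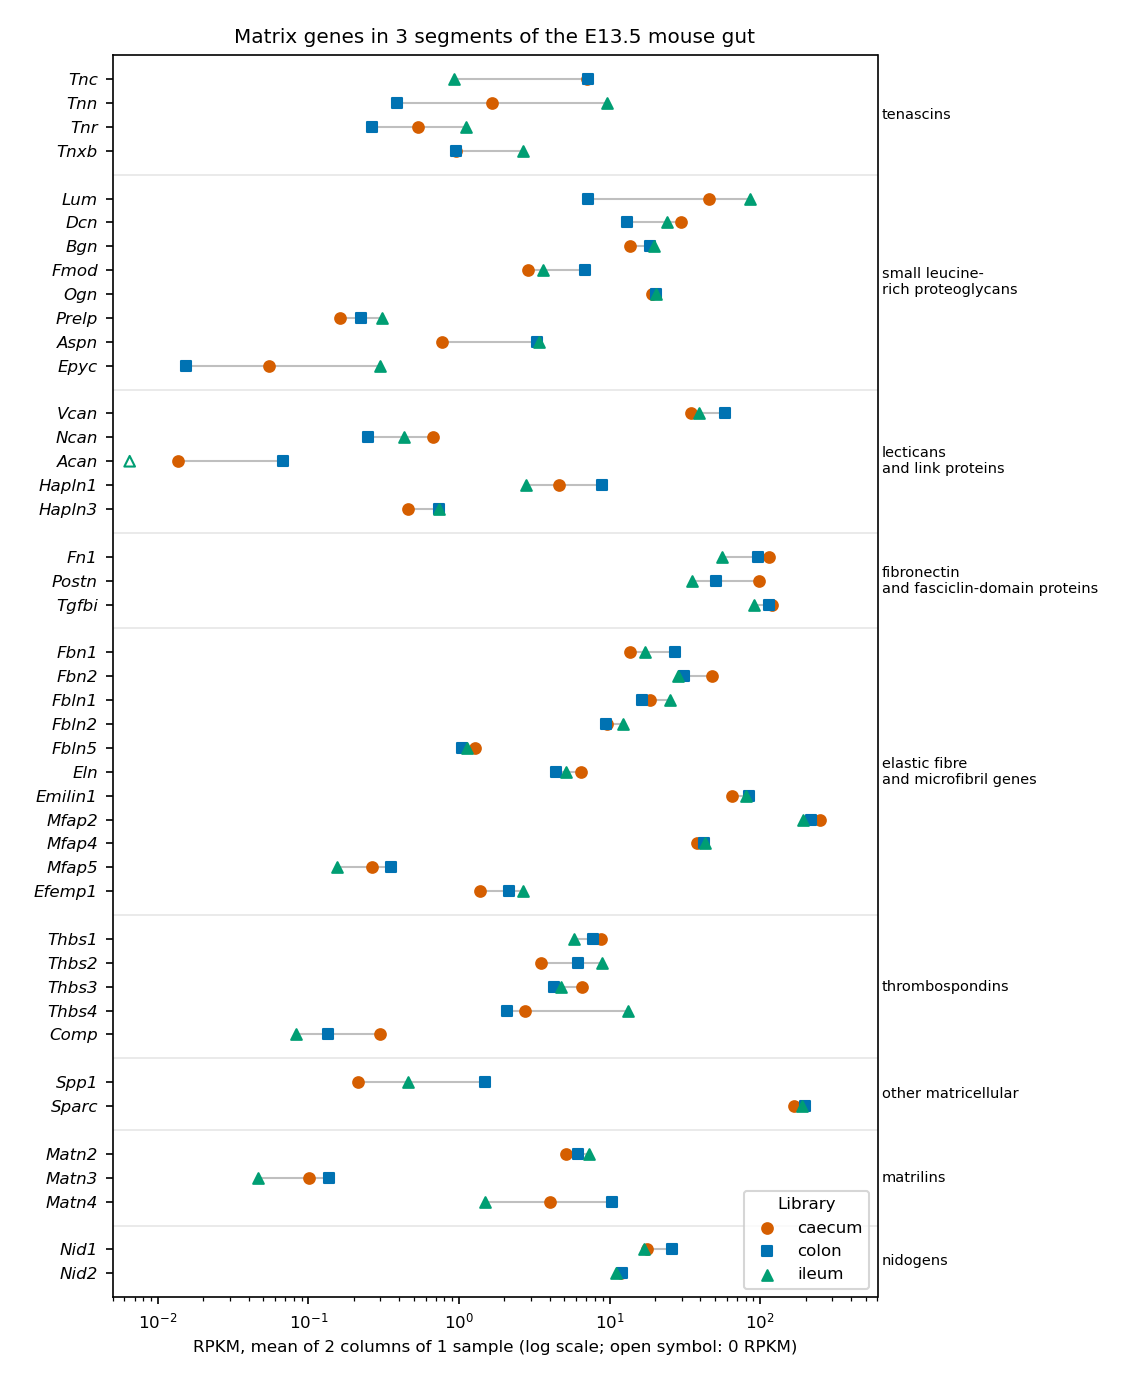
RPKM of the 43 genes with at least 20 counts in a library, on a log axis, grouped by family, with a circle for the caecum, a square for the colon and a triangle for the ileum. An open symbol marks 0 RPKM, and the symbols of Mfap2, at 250.5, 217.6 and 192.4 RPKM, lie close together while those of Tnn, at 1.65, 0.387 and 9.53 RPKM, lie far apart.

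The 4 promoters printed here belong to the genes with the lowest and the highest folds between colon and ileum, among those with at least 100 counts and a matched RefSeq promoter. They are Tnn and Thbs4, which were lower in the colon library than in the ileum library, and Tnc and Matn4, which were higher. Each line gives the 250 bases before the transcription start, 5′ to 3′ in the direction of the gene, from RefSeq on GRCm38.p6. Where 2 starts were listed, as for Tnc and Matn4, the one farther downstream was used. Capitals mark the TATA box letters TATANAA and the GC box letters GGGCGG, searched on both strands, where N is any base and CCGCCC is the GC box read on the other strand.
Tnn, chr1:160153576-160153825, minus strand: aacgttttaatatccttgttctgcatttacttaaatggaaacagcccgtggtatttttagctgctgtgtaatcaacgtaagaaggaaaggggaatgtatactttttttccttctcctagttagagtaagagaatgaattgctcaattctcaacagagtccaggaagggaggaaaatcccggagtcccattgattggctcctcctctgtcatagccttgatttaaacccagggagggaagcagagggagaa
Thbs4, chr13:92794819-92795068, minus strand: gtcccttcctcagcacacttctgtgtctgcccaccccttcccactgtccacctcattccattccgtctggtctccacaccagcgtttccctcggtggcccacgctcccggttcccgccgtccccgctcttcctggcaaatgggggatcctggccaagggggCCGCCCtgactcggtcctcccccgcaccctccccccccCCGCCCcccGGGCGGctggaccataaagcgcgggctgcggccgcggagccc
Tnc, chr4:64046937-64047186, minus strand: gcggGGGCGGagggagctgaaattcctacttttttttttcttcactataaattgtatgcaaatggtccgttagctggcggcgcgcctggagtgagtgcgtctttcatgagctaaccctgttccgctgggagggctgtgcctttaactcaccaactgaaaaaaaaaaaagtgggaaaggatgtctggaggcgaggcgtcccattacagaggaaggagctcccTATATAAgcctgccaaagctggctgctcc
Matn4, chr2:164404819-164405068, minus strand: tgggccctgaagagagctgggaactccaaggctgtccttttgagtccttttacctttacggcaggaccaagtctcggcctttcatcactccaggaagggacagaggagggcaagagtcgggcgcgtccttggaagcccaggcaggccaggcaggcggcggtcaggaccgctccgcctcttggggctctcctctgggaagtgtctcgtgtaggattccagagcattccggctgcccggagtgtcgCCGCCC
The stretch before Tnc held the TATA box letters 29 bases before the start and the GC box letters 246 bases before it. Before Thbs4 the GC box letters began 42, 51 and 89 bases upstream, and before Matn4 they began 6 bases upstream. Neither motif was found in these letters before Tnn. The Thbs4 stretch was rich in G and C, at 70.8% of its bases, against 42.0% for Tnn, 51.2% for Tnc and 62.8% for Matn4. The median share of G and C was 54.2% over 44 promoters of 36 of the genes and 52.4% over 32851 promoters of all genes. The TATA box letters were in 3 of the 44 (6.82%) and in 10.4% of all promoters, and the GC box letters were in 20 of the 44 (45.5%) and in 32.7% of all. Promoters of Lum, Dcn, Fn1, Fbn2, Mfap4, Mfap5, Eln, Thbs1, Comp, Matn2 and Nid2 were not analysed here.

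The tenascins showed opposite patterns along the gut. Tnc was high in the caecum and colon libraries and low in the ileum library, while Tnn, Tnr and Tnxb were highest in the ileum. Tnc encodes tenascin C, the prototype of the family, typical of embryonic mesenchyme at sites of active morphogenesis. It had 3420, 2750 and 350 counts, or 7.07, 7.21 and 0.929 RPKM, in the caecum, colon and ileum. The caecum and colon libraries were alike and the ileum library stood well below them. Tnc was 7.51-fold (6.73 to 8.41) higher in caecum than in ileum and 7.64-fold (6.83 to 8.56) higher in colon than in ileum. Between caecum and colon the fold was 1.02 (0.966 to 1.07) on the lower side for the caecum.

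Tnn, or tenascin W, is a paralogue known from bone and smooth muscle. It had 618, 114 and 2780 counts, or 1.65, 0.387 and 9.53 RPKM, in the caecum, colon and ileum. The ileum library was high, the caecum intermediate and the colon low. Tnn was 5.85-fold (5.36 to 6.39) lower in caecum than in ileum, 4.29-fold (3.51 to 5.28) higher in caecum than in colon, and 25.1-fold (20.8 to 30.5) lower in colon than in ileum. Per length, Tnc transcripts outnumbered those of Tnn 4.29-fold in the caecum and 18.6-fold in the colon, and Tnn outnumbered Tnc 10.3-fold in the ileum. Tnc made up 69.3%, 81.8% and 6.53% of the RPKM of the 4 tenascins, and Tnn made up 16.1%, 4.39% and 67.0%. The summed level of the family moved much less, at 10.2, 8.82 and 14.2 RPKM.

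Tnxb, tenascin X, which binds collagen and is needed for the strength of connective tissue, had 772, 604 and 1674 counts, or 0.956, 0.950 and 2.67 RPKM. Like Tnc it was alike in caecum and colon, but here the ileum was the high library. It was 2.82-fold (2.59 to 3.08) lower in the caecum and 2.85-fold (2.60 to 3.13) lower in colon than in ileum. Tnr, tenascin R, best known from the nervous system, was scarce, with 170, 66 and 274 counts, or 0.531, 0.265 and 1.11 RPKM. It followed the order of Tnn with smaller folds. Tnr was 2.10-fold (1.73 to 2.55) lower in caecum than in ileum, 2.04-fold (1.52 to 2.75) higher in caecum than in colon, and 4.27-fold (3.25 to 5.68) lower in colon than in ileum.

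Smooth muscle markers other than Des were highest in the ileum library, as were Tnn, Tnr and Tnxb. The 8 markers summed to 438.8, 600.7 and 1119.7 RPKM in the caecum, colon and ileum, and 6 of 8 were at least 2-fold lower in caecum than in ileum and 5 of 8 in the colon. None of the 8 was apart between caecum and colon, where Tnn was. Myh11, smooth muscle myosin, had 38.1, 37.2 and 114 RPKM, and its order was that of Tnxb. The others except Des were lowest in the caecum instead, such as Acta2 at 167.5, 252.1 and 379.3 RPKM. Des, desmin, had 12.8, 8.23 and 9.185 RPKM and was highest in the caecum. The 5 enteric neuron markers summed to 81.9, 30.7 and 66.8 RPKM, with 5 of 5 higher in caecum than in colon, 4 of 5 lower in colon than in ileum and none apart between caecum and ileum. In bulk tissue, fewer cells of a type and less RNA per cell cannot be told apart, and the part of these markers in the tenascin values was not tested.

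Among the abundant small leucine-rich proteoglycans, Lum differed most. Lum encodes lumican, a keratan sulfate proteoglycan that regulates collagen fibril diameter. It had 6122, 760 and 8862 counts, or 45.8, 7.21 and 85.3 RPKM, in the caecum, colon and ileum. The colon library was low and the other libraries were both high, with the ileum above the caecum. Lum was 6.37-fold (5.91 to 6.88) higher in caecum than in colon and 12.0-fold (11.1 to 12.9) lower in colon than in ileum. Its 1.88-fold (1.82 to 1.95) lower level in caecum than in ileum was within 2-fold.

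Dcn, decorin, which binds collagen and sequesters TGF-beta, had 3704, 1290 and 2320 counts, or 29.7, 13.1 and 23.9 RPKM. It too was lowest in the colon library, but the caecum was the highest. Dcn was 2.27-fold (2.13 to 2.42) higher in caecum than in colon, 1.85-fold (1.73 to 1.98) lower in colon than in ileum and 1.23-fold (1.17 to 1.29) higher in caecum than in ileum. Per length, Lum exceeded Dcn 1.54-fold in the caecum and 3.57-fold in the ileum, while Dcn exceeded Lum 1.82-fold in the colon. Neural markers were also lowest in the colon library. The 7 markers of enteric neural crest and glia summed to 138.2, 84.2 and 145.3 RPKM, the order of Lum, with 1 of 6 measured higher in caecum than in colon and 3 of 6 lower in colon than in ileum. The enteric neuron markers, at 81.9, 30.7 and 66.8 RPKM, had the order of Dcn, and the part of either list in the levels of Lum and Dcn was not tested.

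Fmod, fibromodulin, a relative of lumican that shares its site on collagen, had 608, 1156 and 597 counts, or 2.85, 6.88 and 3.60 RPKM. It was highest in the colon library, where Lum was lowest. Fmod was 2.40-fold (2.18 to 2.66) lower in caecum than in colon and 1.88-fold (1.70 to 2.08) higher in colon than in ileum. Aspn, asporin, a relative of decorin that binds collagen and calcium, had 116, 392 and 398 counts, or 0.771, 3.29 and 3.39 RPKM. The caecum library was low and the other libraries were alike. Aspn was 4.46-fold (3.62 to 5.54) lower in caecum than in ileum and 4.27-fold (3.46 to 5.30) lower than in colon, and colon and ileum differed by 1.04-fold (0.906 to 1.20).

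The sum of pericyte markers had the order of Aspn, though not every marker did. The 5 markers summed to 30.9, 73.1 and 79.2 RPKM in the caecum, colon and ileum, and 3 of 5 were at least 2-fold lower in the caecum than in each of the other libraries, with none apart between colon and ileum. Rgs5, a regulator of G-protein signalling that marks pericytes, had 3.07, 16.3 and 19.4 RPKM. Pdgfrb was lowest in the caecum but within 2-fold. Cspg4, at 2.797, 2.515 and 3.205 RPKM, was lowest in the colon library instead. The part of these markers in the level of Aspn was not tested.

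Other small leucine-rich proteoglycans were even or scarce. Bgn, biglycan, had 13.7, 18.5 and 19.6 RPKM, and Ogn, osteoglycin, had 19.2, 20.2 and 20.2 RPKM. Ogn was within 1.06-fold in every comparison and was among the most even genes of the group. Prelp, which anchors basement membranes to connective tissue, had 38, 41 and 56 counts and was within 2-fold. Epyc, epiphycan, a cartilage proteoglycan, had 9, 2 and 38 counts and was 5.49-fold (2.61 to 12.9) lower in caecum than in ileum and 19.6-fold (5.05 to 167) lower in colon than in ileum. Such low counts leave the size of the difference loosely set. Omd, osteomodulin, had 4, 17 and 10 counts, and Kera, keratocan, a proteoglycan of the cornea, had 15, 10 and 4, too few to compare.

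These differences changed the make-up of the family. Lum made up 40.7%, 10.3% and 54.4% of the RPKM of the 10 genes in the caecum, colon and ileum. In the colon library Ogn and Bgn were the leading members, at 28.9% and 26.5%, and Fmod reached 9.88% there, against 2.54% in the caecum and 2.30% in the ileum. The summed level was 112.4, 69.7 and 156.7 RPKM. Most of the spread lay with Lum, whose own levels spanned 7.21 to 85.3 RPKM.

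**Figure D2:**
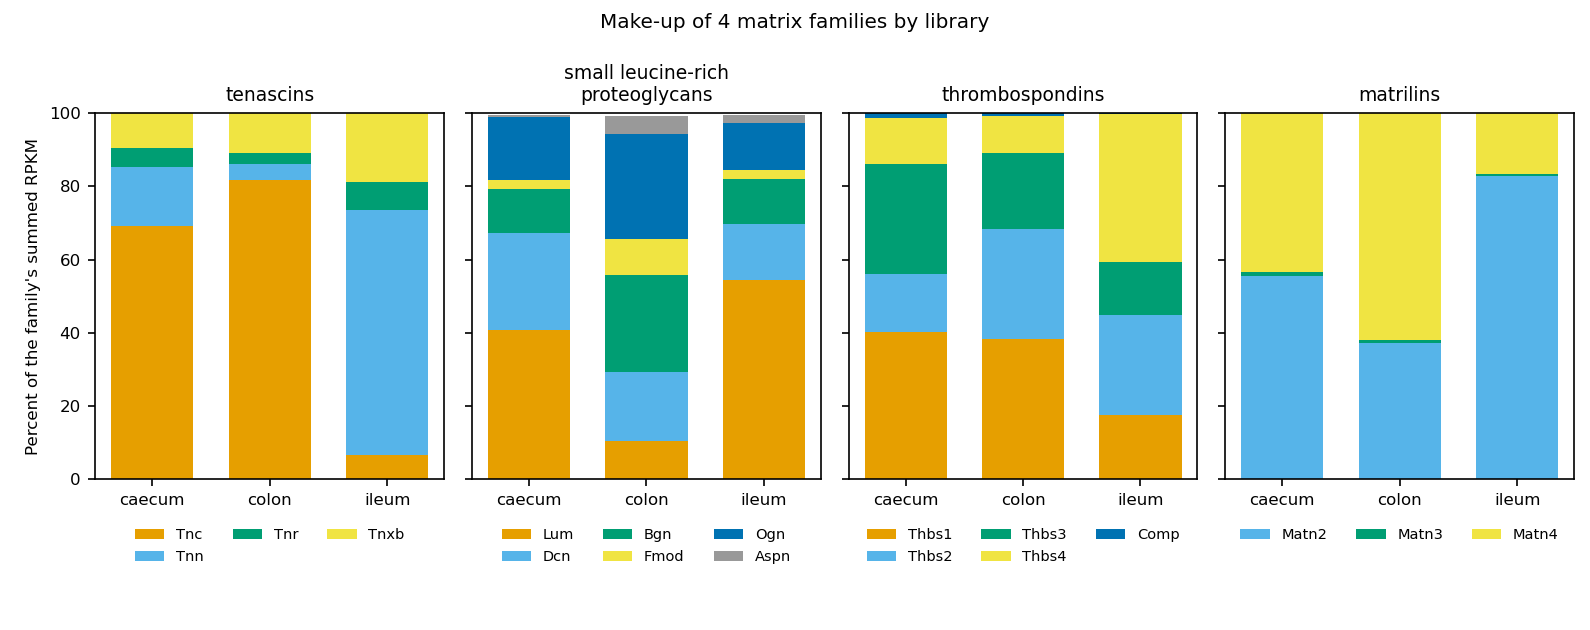
Percent of the summed RPKM of each of 4 families that each member took, with a bar each for the caecum, colon and ileum libraries; members that never reach 0.5% are left out, so a bar may end below 100%. Tnc falls to 6.53% of the tenascins in the ileum, against 69.3% in the caecum and 81.8% in the colon, and Lum takes 10.3% of its family in the colon, against 40.7% in the caecum and 54.4% in the ileum.

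Lecticans were represented almost entirely by Vcan. Vcan encodes versican, the hyaluronan-binding chondroitin sulfate proteoglycan of embryonic mesenchyme. It had 32280, 43020 and 28414 counts, or 34.6, 58.6 and 39.2 RPKM, in the caecum, colon and ileum. The colon library was the highest, but every fold was within 2-fold, at 1.69-fold (1.66 to 1.71) lower in caecum than in colon and 1.47-fold (1.45 to 1.49) higher in colon than in ileum. Hapln1, the link protein that ties lecticans to hyaluronan, had 1512, 2283 and 710 counts, or 4.64, 8.90 and 2.80 RPKM. Its order was colon, caecum and ileum. Hapln1 was 3.12-fold (2.87 to 3.40) higher in colon than in ileum, 1.91-fold (1.79 to 2.04) lower in caecum than in colon and 1.64-fold (1.50 to 1.79) higher in caecum than in ileum. The ratio of Vcan to Hapln1 RPKM was therefore 7.46, 6.58 and 14.0. Hapln3, another link protein, had 98, 124 and 122 counts and was within 2-fold.

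The remaining lecticans are known from nervous tissue and cartilage and were scarce. Ncan, neurocan, had 313, 90 and 155 counts, or 0.675, 0.248 and 0.430 RPKM, and was 2.75-fold (2.17 to 3.52) higher in caecum than in colon. Its folds between caecum and ileum, at 1.55-fold (1.28 to 1.89) higher in the caecum, and between colon and ileum, at 1.77-fold (1.36 to 2.32) lower in the colon, were within 2-fold. Ncan had its lowest level in the colon library, as did the enteric neuron markers given above, whose part in the level of Ncan was not tested. Acan, aggrecan, the main proteoglycan of cartilage, had 6, 26 and 0 counts and was 5.48-fold (2.21 to 16.3) lower in caecum than in colon. In the colon it was 8.42-fold higher than in the ileum, where a count of 0 was set to the floor of 3 counts. The counting interval, taken from the count of 0, began at 6.375-fold. Bcan, brevican, had 10, 0 and 3 counts.

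Fibronectin and periostin were higher in caecum than in ileum, at high levels. Fn1 had 61482, 41090 and 23253 counts, or 114, 97.0 and 55.6 RPKM, in the caecum, colon and ileum. The levels stepped down from caecum to colon to ileum. Fn1 was 2.03-fold (2.002 to 2.064) higher in caecum than in ileum, just past the threshold, 1.72-fold (1.69 to 1.75) higher in colon than in ileum and 1.18-fold (1.17 to 1.20) higher in caecum than in colon. Postn, periostin, a fasciclin-domain protein that promotes collagen cross-linking, had 49550, 20342 and 13781 counts, or 98.1, 51.1 and 35.1 RPKM. It followed the same order, with a wider gap between caecum and colon. Postn was 2.76-fold (2.71 to 2.82) higher in caecum than in ileum, 1.93-fold (1.90 to 1.96) higher in caecum than in colon and 1.44-fold (1.40 to 1.47) higher in colon than in ileum. Tgfbi, its nearest relative here, was within 1.29-fold in every comparison. Together the 3 genes summed to 331.4, 262.8 and 182.2 RPKM. The 10 markers of gut mesenchyme summed to 511.4, 569.1 and 519.8 RPKM, a sum made up largely of Col3a1 and Col1a1, and their genes varied. Of the 10, 2 were higher and 1 lower in caecum than in ileum, 1 was lower in caecum than in colon, and 2 were higher in colon than in ileum. Prrx1, a mesenchymal homeobox gene, had 312, 220 and 5 counts and was lowest in the ileum library. So was Twist1, a mesenchymal transcription factor, at 7.05, 9.80 and 2.25 RPKM, and, by small margins, Col3a1, Foxf2 and Twist2. Col1a1, Pdgfra and Nkx2-3 were highest in the ileum library instead, and Foxl1 was lowest in the caecum library. The part of mesenchymal make-up in the levels of Fn1 and Postn was not tested.

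The elastic fibre and microfibril genes were the most even of the larger families. Of 11 genes, 1 was apart in any comparison, which is near the share of 13.7% among all features measured. Levels of the 11 summed to 452.3, 435.9 and 407.8 RPKM in the caecum, colon and ileum. Mfap2 was highest, followed by Emilin1, which links elastin to microfibrils, at 64.5, 83.9 and 80.6 RPKM, while Mfap4, a microfibril-binding protein, had 38.2, 42.2 and 42.95 RPKM. Eln, elastin itself, was low at this age, with 6.44, 4.38 and 5.14 RPKM. The fibulins, which bridge elastin and microfibrils, were all within 2-fold. Fbln1 had 18.6, 16.3 and 25.04 RPKM, Fbln2 had 9.55, 9.46 and 12.2 RPKM, and Fbln5 had 1.28, 1.04 and 1.13 RPKM. Efemp1, fibulin 3, had 180, 220 and 272 counts and was 1.97-fold (1.62 to 2.39) lower in caecum than in ileum, just within the threshold.

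The fibrillins, the core proteins of microfibrils, differed in opposite directions. Fbn1 had 10650, 16826 and 10354 counts, or 13.6, 27.3 and 17.1 RPKM, and was highest in the colon. Fbn2, the fibrillin typical of the embryo, had 32501, 16592 and 14947 counts, or 48.1, 31.2 and 28.5 RPKM, and was highest in the caecum. Fbn1 was 1.997-fold (1.95 to 2.05) lower in caecum than in colon, the value nearest to the threshold on the inner side. By the ratio of RPKM it was 2.005-fold lower, past the threshold. Fbn2 was 1.55-fold (1.52 to 1.58) higher in caecum than in colon. Fbn2 exceeded Fbn1 per length 3.53-fold in the caecum, 1.14-fold in the colon and 1.67-fold in the ileum. Mfap5, the second microfibril-associated glycoprotein, was scarce, with 61, 64 and 28 counts, or 0.264, 0.351 and 0.156 RPKM. It was 2.22-fold (1.40 to 3.60) higher in colon than in ileum.

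Of the thrombospondins, Thbs4 and Thbs2 were high in the ileum library and Comp in the caecum library. Thbs4, a pentameric thrombospondin of muscle, tendon and neurons, had 579, 348 and 2184 counts, or 2.73, 2.08 and 13.2 RPKM, in the caecum, colon and ileum. The ileum library stood apart from the other libraries. Thbs4 was 4.91-fold (4.47 to 5.39) lower in the caecum and 6.46-fold (5.76 to 7.25) lower in colon than in ileum, and 1.32-fold (1.15 to 1.51) higher in caecum than in colon. Thbs2, an inhibitor of blood vessel growth, had 1332, 1847 and 2658 counts, or 3.49, 6.14 and 8.95 RPKM. It was highest in the ileum and lowest in the caecum. Thbs2 was 2.60-fold (2.43 to 2.77) lower in caecum than in ileum, 1.75-fold (1.63 to 1.88) lower in caecum than in colon and 1.48-fold (1.40 to 1.57) lower in colon than in ileum. Both genes were highest in the library in which the sum of smooth muscle markers was highest, and the part of those markers in their levels was not tested.

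Thbs1, the closest relative of Thbs2 and an activator of latent TGF-beta, ran the other way within 2-fold, with 8.70, 7.79 and 5.78 RPKM. Per length, Thbs1 exceeded Thbs2 2.49-fold in the caecum and 1.27-fold in the colon, and Thbs2 exceeded Thbs1 1.55-fold in the ileum. Thbs3 had 6.51, 4.26 and 4.78 RPKM. Comp, a thrombospondin of cartilage and tendon, had 46, 16 and 10 counts. It was 3.54-fold (1.76 to 7.86) higher in caecum than in ileum and 2.27-fold (1.26 to 4.30) higher in caecum than in colon. Thbs4 took 12.6%, 10.2% and 40.4% of the RPKM of the 5 thrombospondins, whose sum was 21.7, 20.4 and 32.9 RPKM.

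Osteopontin and SPARC are both matricellular proteins but differed in evenness. Spp1, osteopontin, a phosphoprotein of bone, macrophages and epithelia, had 22, 125 and 38 counts, or 0.212, 1.49 and 0.460 RPKM, in the caecum, colon and ileum. The colon library was the high one. Spp1 was 7.18-fold (4.54 to 11.9) lower in caecum than in colon, 3.20-fold (2.21 to 4.73) higher in colon than in ileum and 2.25-fold (1.29 to 3.99) lower in caecum than in ileum. None of 5 macrophage markers was apart in any comparison, with a sum of 15.9, 13.8 and 12.4 RPKM. Bone markers were low, with a sum of 2.22, 1.30 and 1.36 RPKM over 6 genes and with Ibsp at 9, 8 and 0 counts. Of the 3 bone genes measured, Runx2, which the table holds as 2 overlapping features, and Dmp1 stood 2-fold or more above each of the other libraries in the caecum library, and Sp7 was within 2-fold. Spp1 was lowest in the caecum library. Sparc was within 1.17-fold in every comparison.

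Matn4 was the only matrilin at more than a trace that differed between libraries. Matrilins are oligomeric adaptors of cartilage and other matrices. Matn4, matrilin 4, had 1340, 2714 and 384 counts, or 4.02, 10.3 and 1.48 RPKM, in the caecum, colon and ileum. The colon was highest and the ileum lowest. Matn4 was 6.87-fold (6.17 to 7.66) higher in colon than in ileum, 2.56-fold (2.40 to 2.73) lower in caecum than in colon and 2.68-fold (2.39 to 3.01) higher in caecum than in ileum. Matn2, matrilin 2, had 5.13, 6.18 and 7.34 RPKM and was within 2-fold. Matn4 took 43.4%, 62.0% and 16.7% of the RPKM of the family, and Matn2 took 55.5%, 37.1% and 82.8%. Matn3 had 20, 21 and 7 counts. Its fold of 2.92 (1.19 to 8.12) higher in colon than in ileum and that of 2.20 (0.892 to 6.15) higher in caecum than in ileum rest on those counts, and the second interval includes a fold of 1. Matn1 had 0 counts in every library.

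Acan, Hapln1, Comp, Matn1 and Matn3 also belong to the list of cartilage markers. Without these 5 genes, the cartilage list summed to 36.3, 38.0 and 24.1 RPKM in the caecum, colon and ileum over 8 genes. Of the 7 that could be compared, 1 was higher in caecum than in ileum, 1 was higher and 1 lower in caecum than in colon, and 1 was higher in colon than in ileum. Col9a1, a collagen of cartilage and some epithelia, had 6.92, 15.1 and 3.12 RPKM, with the same order of libraries as Matn4 and Hapln1. Col11a1 and Col11a2 shared that order within 2-fold. Col9a2 did not, at 15.9, 7.26 and 8.36 RPKM, and neither did Col9a3 and Sox9, which were highest in the ileum library. Col2a1, the main collagen of cartilage, had 550, 442 and 330 counts, or 1.417, 1.445 and 1.094 RPKM, and was within 2-fold. By RPKM it had the order of Matn4, with caecum and colon nearly alike. Lect1, or chondromodulin, had 2, 5 and 3 counts and Matn1 had 0. The sums of other marker lists had the order colon, caecum and ileum. They were 74.4, 105.3 and 57.6 RPKM for 3 markers of interstitial cells of Cajal and 54.7, 62.8 and 43.5 RPKM for 6 of mesothelium. For 7 of gut epithelium they were 172.6, 197.2 and 154.1 RPKM, and for 3 of tendon 6.69, 7.57 and 4.40 RPKM. Single markers did not all follow their sum. Epcam and Vil1, of epithelium, were lowest in the colon and highest in the ileum. Lrrn4, of mesothelium, and Tnmd, of tendon, were highest in the ileum, and Scx, of tendon, in the caecum. Kit, the receptor that marks interstitial cells of Cajal, was 3.12-fold (3.02 to 3.23) higher in colon than in ileum, and Msln, a mesothelial marker, had 16, 204 and 24 counts. The part of these cell types and of cartilage in the levels of Matn4, Hapln1 and Acan was not tested.

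The nidogens, which join laminin to type IV collagen in basement membranes, were even. Nid1 had 17.7, 26.1 and 16.9 RPKM in the caecum, colon and ileum, with its widest fold at 1.52 (1.47 to 1.57) higher in colon than in ileum. Nid2 had 12.0, 12.1 and 11.1 RPKM and was within 1.07-fold in every comparison.

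**Figure D3:**
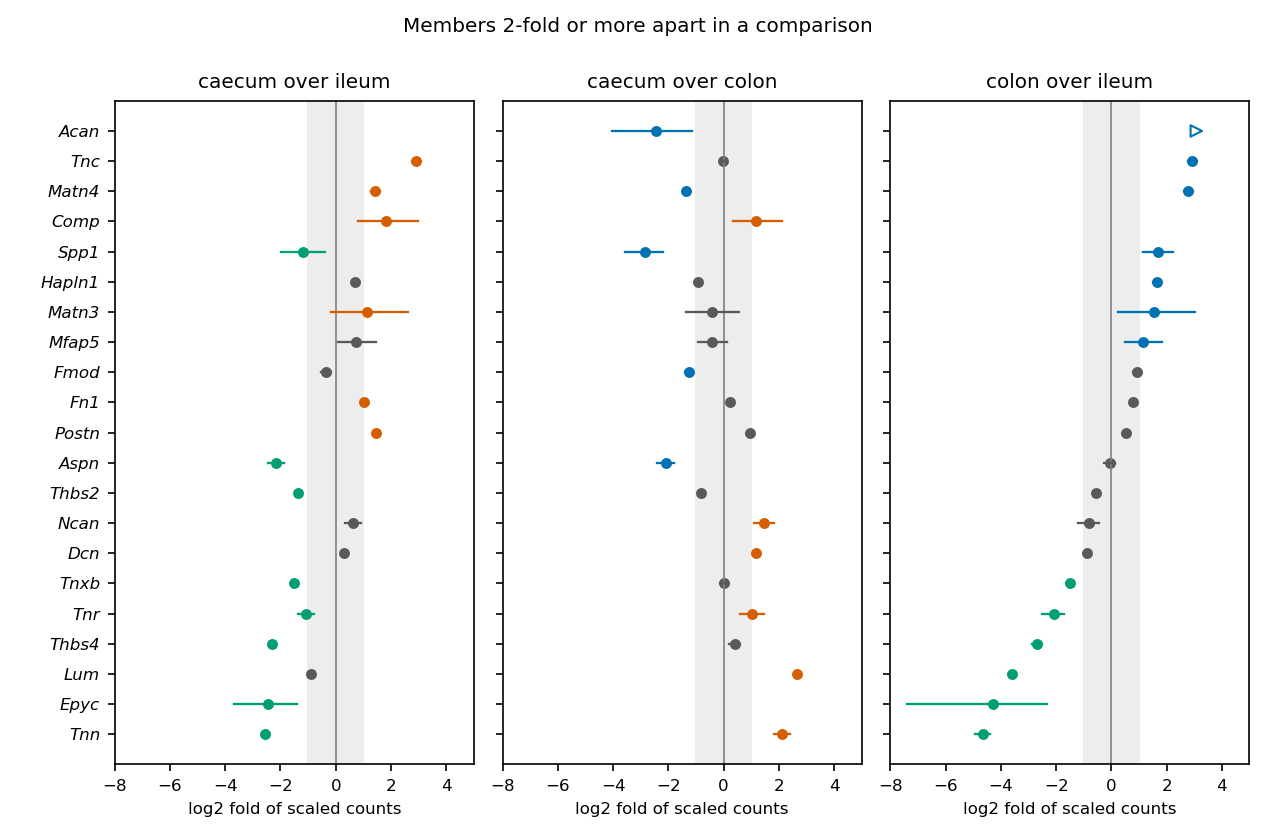
Log2 fold of scaled counts of the 21 genes apart in at least 1 comparison, in 3 panels, caecum over ileum, then caecum over colon, then colon over ileum, with 95% counting intervals and a grey band within 2-fold. Points past the threshold take the colour of the higher library, orange for the caecum, blue for the colon and green for the ileum. The open triangle is the fold of Acan against the floor of 3 counts. Tnn lies farthest to the left for colon over ileum, at -4.65, and Tnc is at 2.93.

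Several of the genes lie beside each other in the genome, and neighbours did not always move together. Dcn (chr10:96942245-96980777), Lum (chr10:97028135-97035337), Kera (chr10:97069817-97076322) and Epyc (chr10:97106702-97145088) follow each other on the plus strand of mm9, with gaps of 47.4, 34.5 and 30.4 kb. In this row Lum, Dcn and Epyc were all lowest in the colon library, but Dcn was highest in the caecum and Lum and Epyc in the ileum. Aspn (chr13:49639812-49662926), Omd (chr13:49678135-49687978) and Ogn (chr13:49703440-49719869) form another such row, with gaps of 15.2 and 15.5 kb. Aspn was low in the caecum library while Ogn was even in the caecum, colon and ileum libraries. Hapln1 (chr13:89680241-89751437) and Vcan (chr13:89794915-89882117), on opposite strands 43.5 kb apart, were both highest in the colon library. Tnr (chr1:161667641-161855053) and Tnn (chr1:162015165-162083711), on opposite strands 160.1 kb apart, shared their order of libraries, ileum, caecum and colon. Tnc (chr4:63620819-63681760), Thbs4 (chr13:93521545-93564773) and Matn4 (chr2:164215129-164230660) lie on the minus strand with no other of these genes within 250 kb.

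Of the 47 genes, 13 overlap another feature of the table, and whether reads were counted by strand is not given in the sources used here. Aspn, Omd and Ogn lie inside Cenpp, a centromere gene on the opposite strand with 479, 614 and 616 counts in the caecum, colon and ileum. Cenpp had more counts than Aspn, which had 116, 392 and 398, and was also lowest in the caecum library. The level and folds of Aspn are uncertain for this reason. Thbs3 lies within the span of Mtx1, which had 4286, 3296 and 3206 counts, and the level of Thbs3 is likewise uncertain. Features on the other strand of Tnc, Matn4 and Fn1 had few counts beside theirs. 8030451A03Rik had 62, 38 and 4 counts beside Tnc, Rbpjl had 51, 124 and 18 beside Matn4, and Apol7d had 1006, 692 and 326 beside Fn1. Each of these features was lowest in the ileum library, as was the gene it overlaps, and reads of the pairs were not told apart.

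Genes that work with these matrix proteins were examined in 5 lists. Among all features, 4.59% were higher and 2.52% lower in caecum than in ileum. The shares were 5.11% and 2.74% for caecum over colon, and 4.04% and 4.29% for colon over ileum. In a list of 11 or 19 genes, 1 gene already exceeds these shares. Of 19 partners in elastic fibre assembly, 2 were higher and 2 lower in caecum than in ileum, 2 were higher in caecum than in colon, and 2 were higher and 1 lower in colon than in ileum. Adamtsl4, a microfibril-binding protein, had 239, 154 and 62 counts, which put caecum over ileum at 2.96-fold (2.23 to 3.98). Loxl4, a lysyl oxidase that cross-links elastin and collagen, had 106, 55 and 190 counts and was 3.56-fold (2.62 to 4.89) lower in colon than in ileum. Emilin3, a relative of Emilin1, had 26.8, 36.3 and 53.1 RPKM and was 2.01-fold (1.94 to 2.07) lower in caecum than in ileum.

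Of 11 measured genes for hyaluronan synthesis, turnover and receptors, 1 was higher and 2 were lower in caecum than in ileum, 1 was higher in caecum than in colon and 1 was lower in colon than in ileum. The higher gene was Cd44, the main hyaluronan receptor, which had 2630, 886 and 590 counts, or 5.96, 2.54 and 1.72 RPKM. It was 3.43-fold (3.13 to 3.75) higher in caecum than in ileum and 2.35-fold (2.17 to 2.54) higher in caecum than in colon. The lower genes, Stab2 and Lyve1, encode hyaluronan receptors of endothelium. Has2, a hyaluronan synthase, had 3.35, 3.12 and 2.82 RPKM and was within 2-fold, as were all 22 measured enzymes of glycosaminoglycan chains in every comparison.

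Of 26 other leucine-rich, matricellular and basement membrane genes, 7 were higher (26.9%) and 3 lower (11.5%) in caecum than in ileum. Between caecum and colon, 5 were higher (19.2%) and 1 lower (3.85%) in the caecum. Between colon and ileum, 4 were higher (15.4%) and 1 lower (3.85%) in the colon. Frem1, a basement membrane protein of the Fraser complex, had 24403, 6876 and 5242 counts, or 27.1, 9.69 and 7.49 RPKM. It was 3.58-fold (3.47 to 3.69) higher in caecum than in ileum and 2.81-fold (2.73 to 2.88) higher in caecum than in colon. Hmcn1, hemicentin, had 2.71, 2.79 and 0.829 RPKM, low in the ileum library like Tnc, which put caecum over ileum at 3.23-fold (3.003 to 3.483) and colon over ileum at 3.31-fold (3.07 to 3.58). Wisp1, a matricellular protein of the CCN family, had 4.27, 8.65 and 11.9 RPKM and was 2.82-fold (2.654 to 3.001) lower in caecum than in ileum. Nepn, nephrocan, a small leucine-rich protein, had 21, 0 and 72 counts. Against the floor of 3 counts in the colon library, it was 24.7-fold lower in colon than in ileum. The counting interval, taken from the count of 0, began at 19.6-fold.

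Among 20 features for 19 receptors of these proteins, none was higher in any comparison, and Itgb3 and Gpc4 were lower in the caecum than in each of the other libraries. Itgb3, the integrin subunit that binds fibronectin, periostin and osteopontin with Itgav, had 460, 922 and 940 counts, or 1.22, 3.11 and 3.21 RPKM. It was 2.66-fold (2.38 to 2.98) lower in caecum than in ileum and 2.53-fold (2.26 to 2.84) lower than in colon. Itga9, an integrin subunit that binds tenascin C, had 10.4, 11.7 and 10.5 RPKM and was within 2-fold. The median log2 folds of the 5 lists lay between -0.38 and 0.33, both of these for the hyaluronan list.

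**Figure D4:**
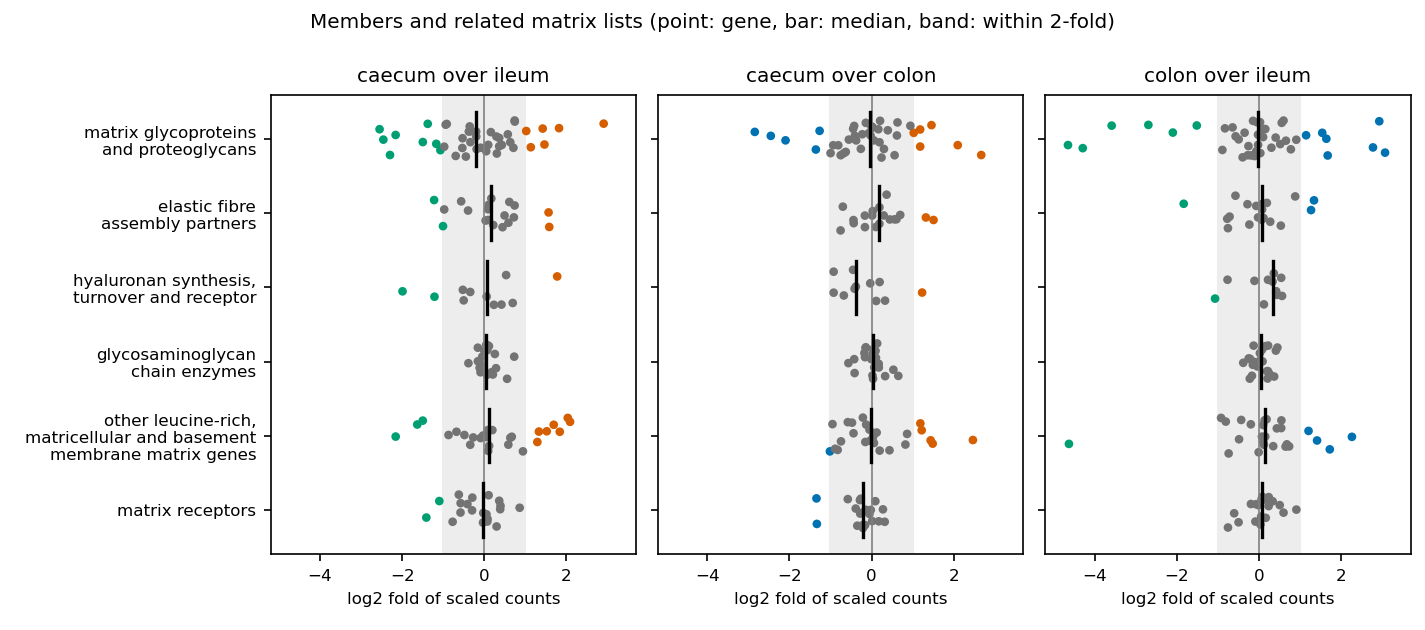
Log2 fold of scaled counts of each measured gene of the 47 and of 5 related lists, in 3 panels, caecum over ileum, then caecum over colon, then colon over ileum, with a black bar at the list's median and a grey band within 2-fold. Points past the threshold take the colour of the higher library, orange for the caecum, blue for the colon and green for the ileum; none of the 22 enzymes of glycosaminoglycan chains leaves the band.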

How the data were processed

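Polyadenylated RNA of the caecum, the colon and the ileum of E13.5 wild-type mouse embryos was read from 1 sample per segment. The authors deposited 1 table with expected counts and RPKM per Ensembl feature, and per the file headers each sample has 2 columns of each unit, named as replicates 1 and 2. The counts of the columns of 1 sample differed by 0.449, 0.438 and 0.422 times the counting variance in the caecum, colon and ileum, so they were averaged, read as 1 library and rounded to whole numbers. RPKM values are the authors' own, deposited as scaled to length and depth, and were averaged. Per the submitters' processing notes, Bowtie 0.12.7, DESeq and mm9 were used; the counting program, the annotation and the use of strand are not given in the sources used here.

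Libraries were scaled over the whole table by edgeR's TMM method (edgeR 4.0.16, R 4.3.3). Intervals at the 95% level were exact (Clopper-Pearson), computed from the binomial share of both counts. They cover counting error only, and the floor for a count of 0 was 3 counts. No test was run, since each segment has 1 sample. The calculation was checked on simulated libraries. Alternatives were DESeq2 1.42.0 size factors, RPKM ratios, other count minimums, intervals wholly beyond 2-fold and each column alone. All 47 genes are accounted for, those apart in a comparison with their counts and folds, and the others by RPKM or counts. Genes named from the related lists are examples chosen after their values were seen, and the genes and lists were chosen with earlier results of these data known. Feature coordinates are on mm9, as the table gives them, with 1 added to each start. Promoters are from a RefSeq table on GRCm38.p6.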

Additional observations from a re-analysis of the deposited data

How the results depend on the processing

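The 6 counts of genes apart stayed within 1.5 times their reported values under 7 alternatives, with 1 exception. With a minimum of 100 counts, 4 genes were higher in colon than in ileum, against 7, because Acan, Mfap5 and Matn3 have fewer counts. The 238 recomputed folds of the 21 genes apart all stayed within their counting intervals and none changed direction. Of these, Matn3 alone crossed the threshold, at 1.92-fold higher in caecum than in ileum with the first column of each sample. The 238 folds do not cover the genes that were not apart. Genes lower in caecum than in colon rose from 5 to 6 with DESeq2 size factors, RPKM ratios or the first column alone. Fbn1 was 2.005-fold lower there by RPKM. The alternatives reuse the same counts, and the columns of 1 sample differ by less than counting error, so they do not measure variation between samples. No paired analysis was possible because each segment has 1 sample. Counting error is small for abundant genes and wide for Acan, Comp, Epyc, Matn3, Mfap5 and Spp1. Variation between embryos, dissections and libraries was not measured for any gene, and intervals do not include it.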
